A study of Mus musculus with 51 samples.

Results

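The 10 genes described here encode the enzymes that write, maintain and remove DNA methylation and the partners through which the chromatin remodeller HELLS acts on it: Dnmt1, Dnmt3a, Dnmt3b, Dnmt3l, Uhrf1, Tet1, Tet2, Tet3, Cdca7 and Zbtb24. They were chosen by name, as 10 of 21728 protein-coding genes on chromosomes 1 to 19 and X. Each gene was read at its promoters, the 1000 bp either side of any annotated transcription start, and along its body. The series mapped open chromatin, histone marks and meiotic DNA breaks in mouse male germ cells, to learn where HELLS and the histone methyltransferase PRDM9 open chromatin at recombination hotspots.

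Enriched germ cells came from mice 12 to 14 days old. ATAC-seq, in which a transposase cuts accessible DNA, was used on C57BL/6J (B6, n = 2), on B6-Prdm9CAST-KI (KI, n = 2), which carry the CAST allele of Prdm9 on the B6 background, on Hells wt (n = 2), on Hells CKO, a conditional knockout (n = 3), and on (B6xCAST) F1 hybrids (n = 2). Chromatin immunoprecipitation after MNase digestion gave H3K9ac, an acetylation of active chromatin, in 3 B6 libraries, 2 KI libraries, 1 Spo11/Spo11 library and 1 library of the hybrids. It also gave H3K4me3, a mark of promoters and of PRDM9 sites, in Hells wt (n = 1), Hells CKO (n = 3), Spo11/+ (n = 1) and Spo11/Spo11 (n = 2). SPO11 makes the meiotic breaks. DMC1, the recombinase on broken ends, was mapped in testis of 6-week-old Hells het and Hells CKO mice, with 1 peak list per genotype. HELLS itself was mapped in testis of KI mice 12 to 14 days old. The labels name no batches: where batches are used below, they were inferred from runs of library numbers in the labels. The labels do not name the Cre driver of the knockout or the background of the Hells and Spo11 mice, and whole testis also holds somatic cells.

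DNMT1 copies methylation onto the new strand after replication, and UHRF1 brings it there. DNMT3A and DNMT3B set methylation anew, and DNMT3L is their cofactor without catalytic activity, needed for methylation of male germ cells. The TET enzymes oxidise methylcytosine. CDCA7 binds HELLS and brings it to chromatin, ZBTB24 is a zinc-finger protein that activates Cdca7, and loss of DNMT3B, ZBTB24, CDCA7 or HELLS in humans causes the same immunodeficiency syndrome.

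The promoters of these genes differ in CpG content, the substrate of the enzymes they encode. All 10 symbols matched the RefSeq promoter table (GRCm38.p6), with 17 promoter entries of 300 bases. The median promoter among 32851 held 7 CpG dinucleotides. Tet2 held 57, the start-proximal Dnmt3a entries 46 and 47, and the richest entries of Uhrf1 and Dnmt1 33 each, whereas the 3 Dnmt3l entries held 3, 4 and 6. Entries of a gene differed too. Outside untranslated and coding bases, other Dnmt1 entries held 2 and 7 CpG in 250 bases. The letters TTTGGCGC, TTTCCCGC, TTTGCCGC or TTTCGCGC, written after the sites of E2F factors, were found on either strand in 3 of the 17 entries, those of Cdca7, Dnmt1 and Uhrf1, against 2.26% of all promoters. Stretches of 4 promoters are shown because they span this range, with CpG in capitals and untranslated and coding bases left out.

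Uhrf1, chr17:56304063-56304312, plus strand: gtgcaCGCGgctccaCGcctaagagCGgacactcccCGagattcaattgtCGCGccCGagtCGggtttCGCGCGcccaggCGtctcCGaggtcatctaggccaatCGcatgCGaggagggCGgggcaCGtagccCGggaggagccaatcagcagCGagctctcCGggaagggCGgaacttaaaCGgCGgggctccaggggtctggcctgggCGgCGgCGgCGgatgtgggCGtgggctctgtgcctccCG
Cdca7, chr2:72475969-72476158, plus strand: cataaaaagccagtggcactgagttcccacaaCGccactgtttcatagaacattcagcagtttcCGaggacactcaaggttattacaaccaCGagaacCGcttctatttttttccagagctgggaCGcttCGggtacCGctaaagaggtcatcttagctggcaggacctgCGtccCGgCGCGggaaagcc
Tet2, chr3:133544391-133544640, minus strand: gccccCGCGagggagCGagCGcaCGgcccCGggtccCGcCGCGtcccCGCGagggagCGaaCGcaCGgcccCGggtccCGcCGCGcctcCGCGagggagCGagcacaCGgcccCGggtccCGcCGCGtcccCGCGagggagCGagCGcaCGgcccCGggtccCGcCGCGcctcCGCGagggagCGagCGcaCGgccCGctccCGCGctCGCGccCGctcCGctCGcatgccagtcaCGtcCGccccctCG
Dnmt3l, chr10:78042037-78042286, plus strand: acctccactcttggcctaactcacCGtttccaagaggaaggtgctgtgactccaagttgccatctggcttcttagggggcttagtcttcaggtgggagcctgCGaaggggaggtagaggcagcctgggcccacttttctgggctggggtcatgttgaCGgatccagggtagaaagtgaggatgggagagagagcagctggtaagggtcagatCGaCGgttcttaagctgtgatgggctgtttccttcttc

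Sequence around 5 sites inside the genes is shown because the results below turn on them. The first 3 lie at the centre of DMC1 peaks of Hells het testis, and the others at sites that were more open or more acetylated in KI than in B6. CpG is again in capitals. Dnmt3b site A, Dnmt3b site B and the Dnmt1 3′ site include coding sequence, the others none.

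Dnmt3b site A, chr2:153662124-153662274, plus strand: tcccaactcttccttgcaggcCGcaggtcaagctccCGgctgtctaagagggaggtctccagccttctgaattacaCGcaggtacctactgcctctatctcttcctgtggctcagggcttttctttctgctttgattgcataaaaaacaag
Dnmt3b site B, chr2:153677584-153677734, plus strand: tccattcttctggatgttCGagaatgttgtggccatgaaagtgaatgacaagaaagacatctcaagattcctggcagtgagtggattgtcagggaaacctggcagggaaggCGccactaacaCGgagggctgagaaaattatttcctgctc
Uhrf1 3′ site, chr17:56317719-56317869, plus strand: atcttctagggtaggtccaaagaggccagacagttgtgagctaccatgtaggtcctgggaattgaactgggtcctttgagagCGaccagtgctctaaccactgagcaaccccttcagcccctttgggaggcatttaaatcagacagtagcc
Dnmt1 3′ site, chr9:20908437-20908587, minus strand: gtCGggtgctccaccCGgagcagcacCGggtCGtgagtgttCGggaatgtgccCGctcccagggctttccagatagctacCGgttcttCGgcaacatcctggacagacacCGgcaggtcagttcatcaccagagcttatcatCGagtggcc
Dnmt3l intron site, chr10:78052893-78053043, plus strand: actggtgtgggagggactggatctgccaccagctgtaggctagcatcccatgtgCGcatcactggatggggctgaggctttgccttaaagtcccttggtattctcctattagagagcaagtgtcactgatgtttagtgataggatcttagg

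Levels are given in CPM, counts scaled to each library's total in regions after TMM adjustment, and CPM per kb of region where genes are compared with each other. Library totals were 6416704 to 11352108 counts in Hells ATAC, 27952728 to 34572929 in B6 and KI ATAC, 13195275 to 30233934 in H3K9ac and 13321006 to 42007820 in H3K4me3. As a check of the cell type, all 10 male germ cell markers had a promoter region in each of the 4 tables, with a median of 22.9 CPM per kb in B6 and KI ATAC. Sertoli markers were present too, 7 of 8 in that table at a median of 10.2, and in H3K9ac 8 of 8 at 8.88 against 8.59 for germ cell markers. Peritubular and stromal markers had a region for 5 of 5 in each table, at a median of 11.8 in B6 and KI ATAC. Endothelial markers had one for 2 to 4 of 4, Leydig markers for 3 to 5 of 6, and blood and macrophage markers for 0 to 2 of 5. In such bulk samples a change in the share of a cell type and a change within cells cannot be told apart.

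In Hells het testis, breaks marked by DMC1 fell inside 3 of the genes and away from their main promoters. Dnmt3b held 2 peaks in its body, site A at chr2:153660787-153663612 and site B at chr2:153676356-153678962 (mm10), 12750 and 28209 bp from the 5′ end of the gene. Uhrf1 held 1 in its 3′ part, called the Uhrf1 3′ site, at chr17:56317035-56318553, where the only transcript start within reach is that of a non-coding transcript. Tet3 held 1 in an intron, at chr6:83419298-83420180. The other 7 genes held none. The Tet3 peak overlapped no region of the ATAC, H3K4me3, H3K9ac or F1 data. The break sites read below are therefore those of Dnmt3b and Uhrf1. The 4 peaks amount to 7.28 per Mb of gene span, against 8.36 over all protein-coding genes.

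In Hells CKO testis most peaks in these genes lay at promoters. Dnmt1, Dnmt3a, Uhrf1, Tet1, Tet2, Cdca7 and Zbtb24 each had a CKO peak at a promoter, 7 of 10 genes, whereas Dnmt3b, Dnmt3l and Tet3 had none. Among all protein-coding genes 40.6% had one, and 52.9% of those with an H3K4me3 region at a promoter. Dnmt3a carried 4 CKO peaks, at 2 promoters (chr12:3807408-3809405 and chr12:3890431-3892777) and in 2 introns. The 10 CKO peaks of all members amount to 18.2 per Mb of gene span, against 11.4 over all protein-coding genes. No het peak overlapped a CKO peak in these genes: Uhrf1 had its het peak at the 3′ site and its CKO peak at the promoter (chr17:56302862-56305255). With protein-coding transcripts alone, 0 of 10 promoters had a het peak, against 1 of 10, Uhrf1, with all transcripts. Of all genes 7.79% had one, and 10.1% of those with an H3K4me3 region at a promoter. Each list holds 1 set of peaks without scores, so that replicates could not be compared.

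**Figure D1:**
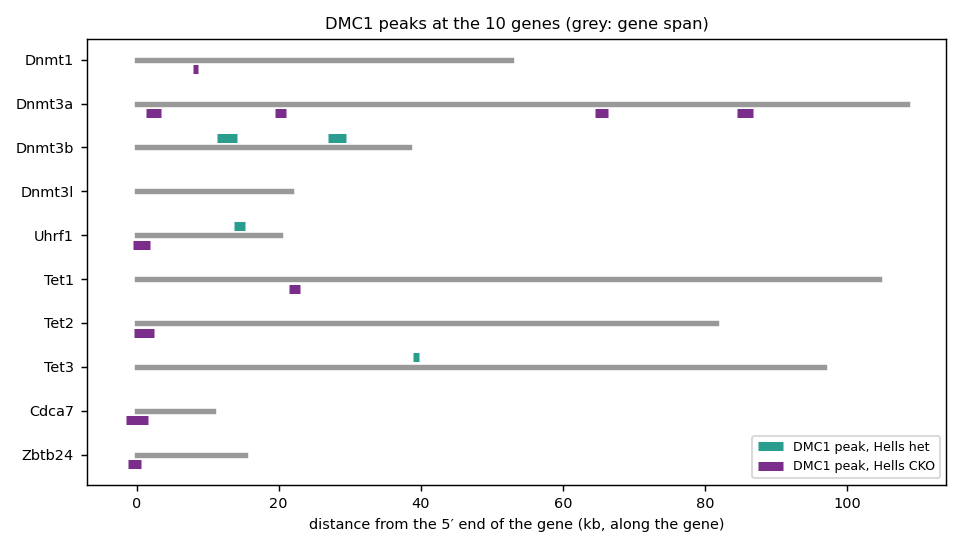
DMC1 peaks along the 10 genes, with distance in kb from the 5′ end of the gene, its most upstream annotated start, on the x axis and 1 gene per row. Het peaks lie above the grey gene span in Dnmt3b, Uhrf1 and Tet3, and CKO peaks below it, at promoters of 7 genes and in 2 introns of Dnmt3a.

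The deposited segmentation of B6 chromatin divides the genome into 11 states. State 7 covered 0.562% of segmented bases and held 67.5% of all het DMC1 peak centres. Among the 10 genes it covered 8.88% of the span of Dnmt3b and 4.96% of Uhrf1, and 0 of the others, Tet3 included. State 1, which held 39.2% of protein-coding gene starts, held 63.5% of CKO peak centres. No HELLS peak of KI testis lay at a promoter of the 10 genes, or elsewhere in their spans, against promoters of 6.78% of all protein-coding genes and 9.0% of those with an H3K4me3 region.

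H3K4me3 fell at the break sites inside Dnmt3b and Uhrf1 in Hells CKO, while the lead promoters of these genes did not pass the test. Dnmt3b site A (chr2:153661203-153663198) read 9.42 CPM in the Hells wt library, 18.3 in Spo11/+, 15.7 and 12.2 in Spo11/Spo11, and 1.34, 1.75 and 1.5 in Hells CKO. The 3 CKO libraries all lay below the 4 libraries with HELLS. The CKO to wt difference was -2.63 on the log2 scale (SE 0.271, adjusted p = 0.000343, edgeR quasi-likelihood test).

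Dnmt3b site B (chr2:153677003-153678398) read 9.14 CPM in Hells wt, 22.2 in Spo11/+, 17.6 and 15.3 in Spo11/Spo11, and 1.93, 1.29 and 1.10 in Hells CKO. Its difference was -2.64 (SE 0.301, adjusted p = 0.000393, edgeR). The Uhrf1 3′ site (chr17:56317403-56318398) read 4.46 in Hells wt, 5.72 in Spo11/+, 5.22 and 3.87 in Spo11/Spo11, and 0.404, 0.568 and 0.587 in Hells CKO, a difference of -3.11 (SE 0.383, adjusted p = 0.00051, edgeR). Again no CKO library overlapped a library with HELLS. The Hells wt group is 1 library, assumed in the fit to vary like the others. Within the batch that 1 CKO library shares with it, the log2 differences were -2.36, -2.73 and -2.77 at the 3 sites.

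These were the only members' regions that passed: 2 of 14 body regions and 1 of 20 promoter regions, all 3 lower. Of all regions 11.7% passed (11.7% lower and 0.0279% higher), and of promoter regions of any gene 3.55% (3.5% lower and 0.0443% higher). Another Dnmt3b region next to site B read 0.638 CPM in Hells wt and 0.17 ± 0.0322 (SD, n = 3) in Hells CKO, with adjusted p = 0.173 (edgeR). It lies in the same DMC1 peak as site B.

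At the lead promoters, the region of highest level per kb, the Dnmt3b promoter read 46.0 CPM in Hells wt and 50.5 ± 6.43 (SD, n = 3) in Hells CKO, and the Uhrf1 promoter 59.1 and 74.5 ± 11.1. Their log2 differences were 0.14 and 0.33. Of the 10 lead promoters 0 passed in edgeR and 0 had an unadjusted p under 0.05 there, which 18.1% of all regions reached. In DESeq2 1 passed, Dnmt1, a count with no DESeq2 share of all regions beside it. The differences ran from -0.11 for Dnmt3l to 0.56 for Zbtb24, with a median of 0.40 against 0.19 over all promoter regions. Between the 2 libraries of the shared batch they ran only from -0.01 for Dnmt3l to 0.32 for Tet1, with 0.05 for Zbtb24. Lead promoters of Sertoli markers had a median of 0.52 and those of germ cell markers 0.16. Their summed level was 503 to 745 CPM in Hells CKO and 459 in Hells wt for Sertoli markers (8 of 8), and 357 to 469 against 357 for germ cell markers (10 of 10). The part of these markers in the promoter values was not tested.

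**Figure D2:**
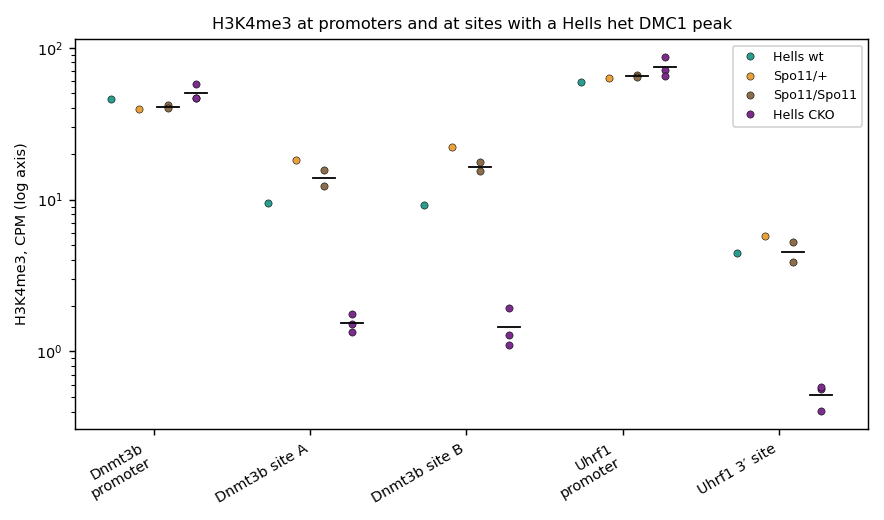
H3K4me3 level per library in CPM (log axis) at the lead promoters of Dnmt3b and Uhrf1 and at their 3 sites with a het DMC1 peak. Bars mark group means where there are several libraries. The 3 Hells CKO libraries lie between 0.404 and 1.93 at the sites, below all libraries with HELLS.

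In ATAC of Hells CKO against Hells wt, no member region passed in edgeR, of 16 promoter and 31 body regions, where 0.382% of all regions passed (0.382% lower, 0.0% higher) and 0.174% of promoter regions of any gene. At unadjusted p under 0.05, which 1.54% of all regions reached, there was 1, Dnmt3b site B (chr2:153677003-153678398), and DESeq2 called 0. Site B read 6.64 and 6.17 CPM in Hells wt and 4.09, 1.83 and 2.92 in Hells CKO. The groups did not overlap at 6 of 31 body regions, site B among them, and at 0 of 16 promoter regions. The difference at site B was -1.13 (SE 0.358, adjusted p = 0.624, edgeR). With library batch as a block it was -1.21 and passed (adjusted p = 0.000288, edgeR). Site A and the Uhrf1 3′ site had no region in this table. Lead promoters ranged from -0.16 for Zbtb24 to 0.09 for Dnmt3l, and the groups overlapped at all 10.

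Between KI and B6, sites inside Dnmt1 and Dnmt3b and at the 3′ edge of Dnmt3l differed in accessibility. At the Dnmt1 3′ site (chr9:20907904-20909120), which covers coding exons and counts as a promoter region through a non-coding transcript, ATAC read 2.23 and 2.95 CPM in B6 and 11.6 and 11.0 in KI. The difference was 2.11 (SE 0.23, adjusted p = 2.26e-05, edgeR). At the 3′ edge of Dnmt3l (chr10:78063441-78063864), in a region centred beyond the gene, ATAC read 0.92 and 0.602 in B6 and 5.16 and 5.37 in KI, a difference of 2.79 (SE 0.322, adjusted p = 3.69e-05). Both sites rose in KI without overlap. Such separation of 2 and 2 libraries was common, at 13 of 18 member promoter and 5 of 21 body regions, called or not.

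Regions in the 2 Dnmt3b DMC1 peaks moved in opposite directions. Site B (chr2:153677327-153678220) fell from 8.94 and 5.33 CPM in B6 to 2.26 and 2.57 in KI (log2 difference -1.56, SE 0.292, adjusted p = 0.00224, edgeR). A region on the upstream side of the site A peak (chr2:153661067-153661873), which does not reach the stretch printed above, rose from 5.19 and 4.07 to 8.13 and 8.51 (0.85, SE 0.222, adjusted p = 0.0266, edgeR), a call that DESeq2 did not make (adjusted p = 0.0503) and that was lost without either KI library (0.285 and 0.435, edgeR). The Uhrf1 3′ site read 3.85 and 1.78 in B6 and 1.5 and 1.49 in KI (-0.90, adjusted p = 0.293, edgeR). Without B6 replicate 2, which leaves 1 B6 library, its difference was -1.38. In all, 3 of 21 body regions and 1 of 18 promoter regions passed, 3 higher and 1 lower. Of all regions 9.41% passed (7.14% higher, 2.27% lower), and of promoter regions of any gene 3.37% (2.43% higher, 0.942% lower). Library batch follows strain in both the ATAC and the H3K9ac libraries, so the strain and the batch cannot be told apart.

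H3K9ac rose in KI at the same Dnmt1 and Dnmt3l sites as ATAC. The Dnmt1 3′ site (chr9:20907468-20909759) read 0.484, 2.33 and 0.815 CPM in B6, 26.9 and 25.0 in KI and 3.06 in Spo11/Spo11. The KI to B6 difference was 4.52 (SE 0.623, adjusted p = 0.0125, edgeR). The Dnmt3l 3′ site (chr10:78062299-78064685) read 1.00, 3.40 and 1.34 in B6 and 32.6 and 34.8 in KI, a difference of 4.2 (SE 0.527, adjusted p = 0.0103). The KI libraries stood far above every B6 library at both sites.

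An intron site of Dnmt3l with no ATAC region (chr10:78052046-78053890) read 0.839, 2.90 and 1.11 in B6 and 15.9 and 15.8 in KI (3.35, SE 0.533, adjusted p = 0.0174, edgeR). In Tet1, chr10:62890577-62892544 read 4.39, 6.49 and 6.26 in B6 and 10.9 and 12.8 in KI (1.06, SE 0.237, adjusted p = 0.046, edgeR). None of the 4 had a DMC1 peak of the Hells het list. All 4 calls were lost without either KI library or without B6 replicate 3, with the direction kept. Without B6 replicate 3 adjusted p ran from 0.0584 to 0.138 (edgeR). The Tet1 call was also lost without B6 replicate 1 (adjusted p = 0.12, edgeR) and with library size alone (adjusted p = 0.0851, edgeR). The 4 calls were 3 of 22 promoter and 1 of 22 body regions, all higher. Of all regions 12.3% passed (12.1% higher, 0.208% lower), and of promoter regions of any gene 5.09% (4.91% higher, 0.184% lower).

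B6 replicate 2 of H3K9ac stood apart at the break sites, and not only there. It was also the highest B6 library at the Dnmt1 3′ site and at the Dnmt3l intron and 3′ sites. At the Dnmt3b lead promoter it was the lowest, at 25.6 CPM against 35.0 and 36.0. Dnmt3b site A (chr2:153660328-153663327) read 6.10, 25.7 and 6.36 CPM in B6 and 20.7 and 23.6 in KI, so that the groups overlapped (0.82, SE 0.688, adjusted p = 0.479, edgeR). Without that library the difference was 1.82 with adjusted p = 4.96e-12. Site B (chr2:153676999-153678523) read 4.74, 16.7 and 4.92 in B6 and 2.22 and 2.24 in KI (-1.96, SE 0.686, adjusted p = 0.171, edgeR). Without B6 replicate 2 the difference was -1.12 with adjusted p = 1.23e-05 (edgeR). That fit called a large share of all regions, with counts in the closing section. Passing it was therefore not particular to the break sites. The H3K9ac region of site A also covers the upstream ATAC region that rose in KI, and its level cannot be split between them.

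**Figure D3:**
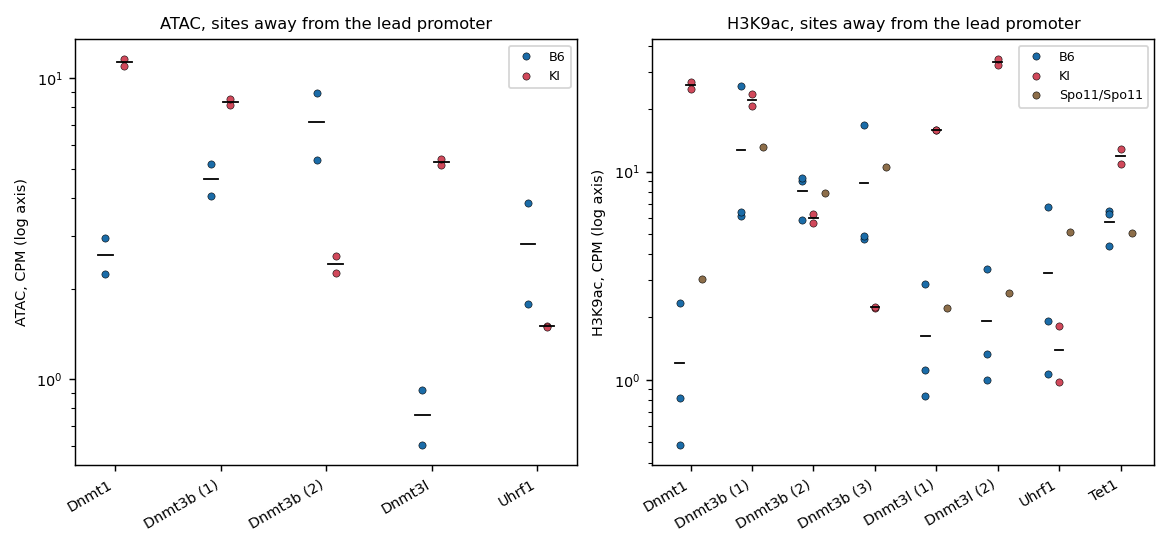
ATAC (left) and H3K9ac (right) per library in CPM (log axis) at member regions other than the lead promoter that passed the KI against B6 test or hold a het DMC1 peak, numbered along the chromosome; bars mark means. KI libraries lie above B6 at the Dnmt1 and Dnmt3l sites and below B6 at the second ATAC site of Dnmt3b.

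In Spo11/Spo11 germ cells no change of the histone marks was called at the break sites with all libraries, and H3K9ac there depended on B6 replicate 2. H3K4me3 at Dnmt3b sites A and B differed by -0.39 and -0.44 from Spo11/+, with adjusted p = 1 (edgeR), and no member region passed, of 14 body and 20 promoter regions (0 at unadjusted p under 0.05, 0 in DESeq2, and 0.0% of all regions, with 0.201% of all regions at unadjusted p under 0.05). In H3K9ac the Spo11/Spo11 library read 13.1 at site A, 10.5 at site B and 5.12 at the Uhrf1 3′ site (chr17:56317296-56318622), each below B6 replicate 2 and above the other B6 libraries. No member region passed in edgeR, 1 body region, in Dnmt3a (chr12:3843062-3844536), had an unadjusted p under 0.05, and DESeq2 called 0. Of all regions 0.0% passed and 3.93% had an unadjusted p under 0.05. Without B6 replicate 2 the fit called a large share of all regions, with counts in the closing section. Calls at members were therefore not particular to them. The log2 differences in that fit were 1.07 at site A, 1.12 at site B and 1.77 at the Uhrf1 3′ site, all higher in Spo11/Spo11. With all libraries they were only 0.06, 0.27 and 0.69. Without B6 replicate 1 they were -0.28 at site A and -0.03 at site B, and without B6 replicate 3 -0.27 and -0.02. The Spo11/Spo11 H3K9ac group is 1 library, made with another library kit than the B6 libraries.

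In (B6xCAST) F1 hybrids, 4 member regions differed between the alleles, which share a nucleus. At the Dnmt1 3′ site (chr9:20907666-20909319) the CAST allele held 23.2% of 82 ATAC counts and 33.8% of 71, and 18.6% of 43 H3K9ac counts (exact 95% interval 8.39% to 33.4%). The B6 allele was higher in all 3 libraries, with a CAST to B6 log2 ratio of -1.34 in ATAC (SE 0.318, adjusted p = 0.00051, edgeR). In an intron of Tet2 (chr3:133487952-133489570) the CAST allele held 74.2% of 66 and 70.5% of 61 ATAC counts and 81.2% of 85 H3K9ac counts (71.2% to 88.8%), with a ratio of 1.39 (SE 0.348, adjusted p = 0.00113).

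Tet3 (chr6:83436510-83437648) held 71.4% and 68.2% CAST counts in ATAC and 73.5% in H3K9ac (1.2, SE 0.415, adjusted p = 0.0283, edgeR). Tet1 (chr10:62877198-62879037) held 70.4% and 58.7% in ATAC (0.86, SE 0.318, adjusted p = 0.0451, edgeR; 0.0701 with a minimum of 10 counts). They were 2 of 18 promoter regions tested (Dnmt1, Tet1) and 2 of 12 body regions tested, 3 CAST higher and 1 lower. A further 4 promoter and 2 body regions had too few allele counts to test. Of all tested regions 18% passed (7.69% CAST higher, 10.3% CAST lower), and of promoter regions of any gene 14.3%. The overall CAST share was 48.9% and 49.1% in the ATAC libraries.

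The KI sites of Dnmt3l were balanced in F1 ATAC, with 61 summed counts of each allele at the intron site and 99 of B6 against 101 of CAST at the 3′ end. At the Tet1 KI site (chr10:62890673-62891781) the marks differed: the CAST allele held 59.0% and 54.4% of ATAC counts but 9.38% of 32 H3K9ac counts (1.98% to 25.0%). Dnmt3b site A held 33.3% CAST counts in H3K9ac (21.4% to 47.1%) and site B 69.8% (53.9% to 82.8%), while ATAC ratios at both did not pass (adjusted p = 0.642 and 0.807, edgeR). The F1 region of site A (chr2:153660692-153662703) also covers the upstream ATAC region that rose in KI. The single H3K9ac library was not tested between alleles. Intervals cover counting error only.

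**Figure D4:**
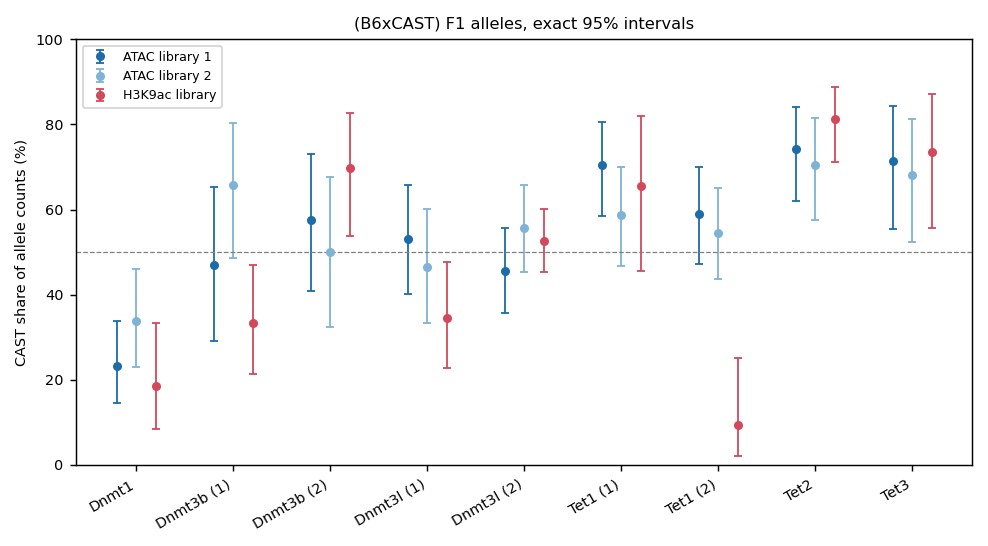
CAST share of allele counts in percent in the 2 ATAC libraries and the H3K9ac library of the F1, with exact 95% intervals, at member regions that passed the allele test, hold a het DMC1 peak or are KI sites, numbered along the chromosome. The Dnmt1 site lies below 50% in all 3 libraries, and the Tet2 and Tet3 sites above it.

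The lead promoters differed in level. Per kb and over all libraries, Dnmt3l was lowest in each table, at 8.99 CPM per kb in B6 and KI ATAC, 9.63 in Hells ATAC, 4.66 in H3K9ac and 6.69 in H3K4me3, below the medians of all promoter regions (11.3, 10.8, 4.82 and 7.69). That region also holds a start of Aire, so its level is shared. The lead regions of Dnmt3b, Tet2 and, in H3K9ac, Tet3 hold a start of another gene too. For Tet1 the ATAC lead region lies at a non-coding transcript start, and the H3K9ac and H3K4me3 lead regions at a coding start elsewhere in the gene. Zbtb24 was highest in H3K9ac (15.4, range 11.1 to 18.7) and H3K4me3 (21.7, range 15.6 to 31.7), both with ranges that overlap other genes. In B6 and KI ATAC, Dnmt3a (25.0, range 21.5 to 28.8) and Uhrf1 (24.6, range 22.2 to 28.5) were nearly equal, and in Hells ATAC Dnmt3a (23.6, range 20.4 to 28.0) overlapped Tet1 (21.8, range 20.1 to 25.1) and Uhrf1 (21.6, range 18.7 to 24.6). In H3K4me3, Uhrf1 (20.5, range 17.8 to 26.1) and Dnmt1 (range 15.8 to 24.6) overlapped Zbtb24. The remaining 6 of the 10 lay between 11.6 for Tet3 and 17.2 for Dnmt3b, with ranges that overlap between neighbours in this order.

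In KI against B6 ATAC 0 of 10 lead promoters passed (edgeR; 2 at unadjusted p under 0.05, which 13.8% of all regions reached; 0 in DESeq2). The values were below 0 in 9 of 10, with a median of -0.26 against -0.13 over all promoter regions and 0.02 over all regions. Dnmt3b had the lowest, from 35.4 and 38.9 CPM in B6 to 29.3 and 27.9 in KI (-0.38, SE 0.148, adjusted p = 0.213, edgeR). Cdca7 was next, at 38.0 and 37.1 in B6 and 28.9 and 29.5 in KI (-0.36, adjusted p = 0.231, edgeR). Without B6 replicate 1 or 2 (1 B6 library left) differences were -0.438 and -0.335 for Dnmt3b and -0.338 and -0.406 for Cdca7. H3K9ac lead promoters did not pass either (0 of 10 in edgeR, 0 at unadjusted p under 0.05, which 23.3% of all regions reached, and 0 in DESeq2), from -0.49 for Tet3 to 0.35 for Zbtb24.

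**Figure D5:**
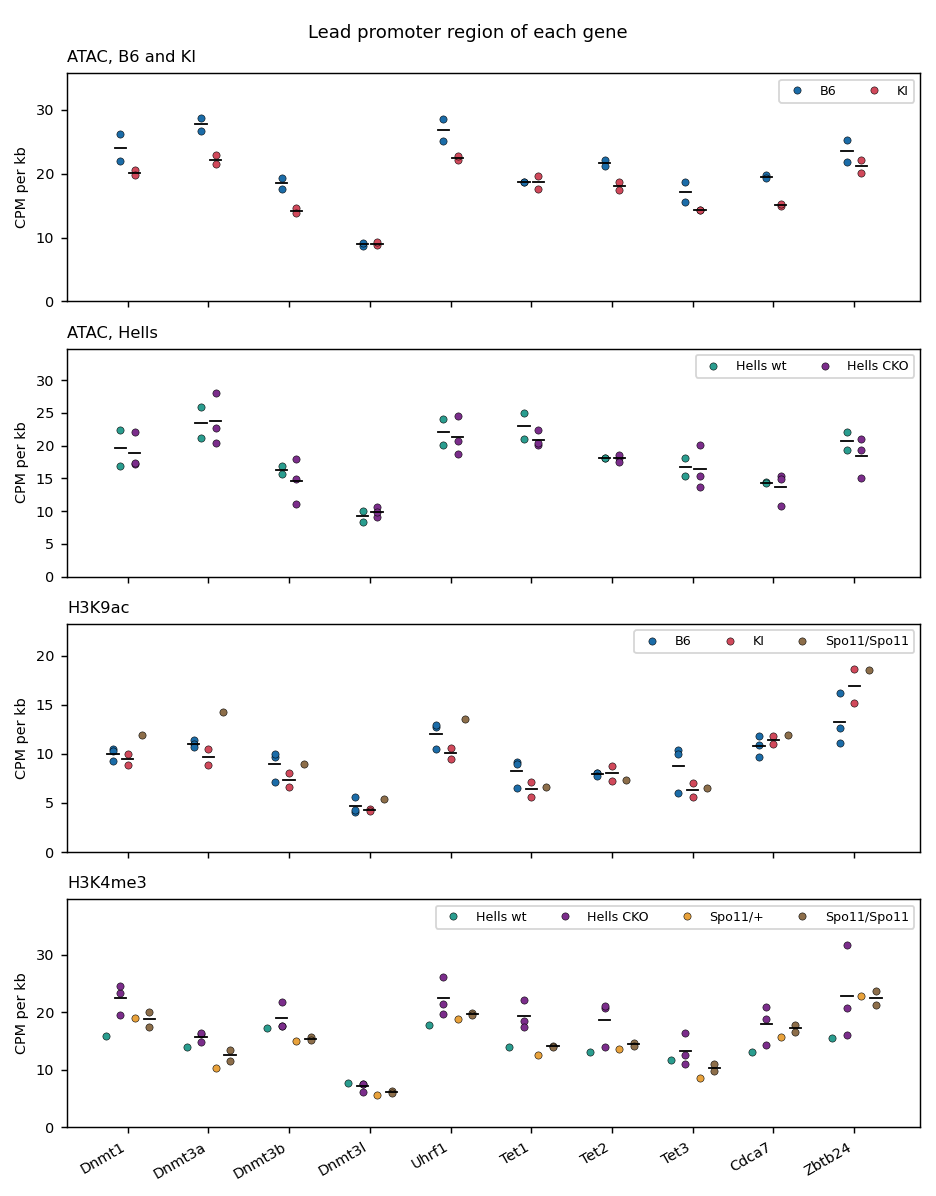
Level of the lead promoter region of each gene in CPM per kb, 1 point per library and a bar at group means, in 4 tables. Dnmt3l is lowest in each table.

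Of 45 further genes of DNA methylation and its readers, 42 had an H3K4me3 lead promoter region and 1 passed in Hells CKO against wt (edgeR). It was Dnmt3c, the rodent methyltransferase of male germ cells that arose from Dnmt3b, at 8.72 CPM in Hells wt, 12.0 in Spo11/+, 10.7 and 11.0 in Spo11/Spo11, and 4.35, 4.03 and 3.08 in Hells CKO (-1.19, SE 0.27, adjusted p = 0.0129, edgeR). It neighbours Dnmt3b and resembles it in sequence, so reads may be shared. The 1 edgeR call among these genes is a smaller share than that of promoter regions of any gene, given above. DESeq2 called 7 of the 42 in the same comparison. No lead promoter of the list passed in the other 5 comparisons (edgeR; 2, 0, 2, 11 and 0 at unadjusted p under 0.05 in the order ATAC KI, ATAC Hells, H3K9ac KI, H3K9ac Spo11, H3K4me3 Spo11; 0, 0, 1, 1 and 0 in DESeq2). Tested were 40, 40, 41, 41 and 42 genes in that order, and the shares of all regions at unadjusted p under 0.05 are given above. The DESeq2 counts of these genes, the 7 included, have no DESeq2 share of promoter regions beside them and cannot be read against one. CKO DMC1 peaks lay at promoters of 31 of 45 (68.9%), het peaks at 13 (28.9%) and HELLS peaks at 7 (15.6%). Among all protein-coding genes the shares were 40.6%, 7.79% and 6.78%. Among those with an H3K4me3 region at a promoter they were 52.9%, 10.1% and 9.0%. Hells itself had a het and a CKO peak at a promoter. Which exons of Hells were deleted is not in the labels, so its promoter level does not check the knockout.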

How the data were processed

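ATAC-seq and ChIP-seq of mouse male germ cells or testis were analysed from the deposited tables. Per the file headers and values, the authors' tables hold raw counts of reads per region (ATAC, H3K9ac, H3K4me3), and for the F1 the authors' deposited expected counts per allele, rounded here to whole numbers. The deposited DMC1, HELLS and chromatin state lists were used as positions. The submitters' processing notes name BWA 0.7.15, Bowtie 0.12.9, MACS 1.4.2, CASAVA and the build mm10; which tool made which file is not given in the sources used here. 10 columns that match no sample were not used.

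Tests used edgeR 4.0.16 on the counts (quasi-likelihood F test, TMM, filterByExpr, Benjamini-Hochberg over all regions, threshold 0.05) in R 4.3.3; the scripts were tested on simulated data. H3K9ac and H3K4me3 fits held all their groups. F1 alleles were compared within library, in regions with at least 20 allele counts in each. Genes and starts came from GENCODE M21, and overlap meant at least 1 bp. All 10 genes are named, with each body region that passed, and of the 45 further genes those that passed. Body regions with a het DMC1 peak are named, except a Dnmt3b region in H3K9ac (chr2:153673666-153676429). Those with a CKO peak, all in Dnmt3a, are given for H3K4me3 alone. No body region held a HELLS peak. The genes and lists were chosen with earlier results of these data known. DESeq2 1.42.0, other scalings, no filter, left-out libraries, a batch block, shared-batch values, another promoter window and coding transcripts alone were alternatives. Whether replicates were different animals is not in the labels, and the spread behind the p-values may be technical. B6 and KI ATAC columns name the strain but not the sample.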

Additional observations from a re-analysis of the deposited data

How the results depend on the processing

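No paired analysis was possible because the labels give no replicate numbers. Batches inferred from runs of library numbers allowed a batch block in Hells ATAC instead, where Hells CKO replicates 1 and 2 each share a run with a Hells wt library. The limits are 1 library in Hells wt and Spo11/+ (H3K4me3) and in Spo11/Spo11 (H3K9ac), batch that follows strain in KI against B6, and few allele counts per F1 site. Of 90 differences at named regions, 21 changed sign in at least 1 alternative, and 0 of these passed in either fit. They include the Dnmt3l lead promoter in Hells ATAC (0.09, and -0.03 without Hells wt replicate 1), in KI ATAC (0.03, and -0.02 without KI replicate 2) and in Hells CKO H3K4me3 (-0.11, and 0.15 with all HELLS-competent groups as reference). Where no reason is given, the cause of a move was not tested.

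With all libraries, 81887 regions were tested in KI against B6 ATAC, 95033 in Hells ATAC, 91909 in H3K9ac and 78959 in H3K4me3. Leaving out 1 library at a time gave these ranges. In KI against B6 ATAC, 5439 to 10370 regions were higher and 1060 to 8439 lower, with 1 to 9 member promoter and 2 to 6 member body regions called. In Hells ATAC 0 to 1 were higher and 0 to 626 lower, the 0 lower without Hells CKO replicate 3. In KI against B6 H3K9ac 0 to 26360 were higher and 0 to 24586 lower, with 0 to 11 member promoter and 0 to 16 body regions. The highest counts came without B6 replicate 2, and 0 without either KI library. In Spo11/Spo11 H3K9ac 0 to 21202 were higher and 0 to 11639 lower, with 0 to 6 member promoter and 0 to 10 body regions, all calls coming without B6 replicate 2. In H3K4me3 of Hells CKO 6 to 2542 were higher, with 1 to 4 member promoter regions, the most without Hells CKO replicate 2. In H3K4me3 of Spo11/Spo11 0 to 2 were higher.

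DESeq2 called 1552 regions lower and 2 member body regions in KI H3K9ac, 136 higher and 2 lower in Spo11/Spo11 H3K9ac, 1042 higher and 2 member promoter regions in Hells CKO H3K4me3, and 4 higher and 1 lower in Spo11/Spo11 H3K4me3. Library size alone gave 469 lower in KI H3K9ac and 12 higher in Hells CKO H3K4me3, where RLE scaling gave 75 higher. With all HELLS-competent groups as reference, 1807 were higher and 3 member promoter regions were called. The batch block in Hells ATAC gave 14 higher, 1197 lower and 1 member body region.

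With protein-coding transcripts alone, which moves regions from the promoter class to the body class, member promoter calls were 0 in KI ATAC, 1 in KI H3K9ac (3 body regions), 0 in Hells CKO H3K4me3 and 1 in the F1, and 0 promoters had a het DMC1 peak. A promoter window of 500 bp gave 2 body regions in KI H3K9ac and 1 promoter region in the F1. In the F1, at least 10 allele counts gave 1 member promoter region, and an exact binomial test of summed counts gave 8953 regions with CAST higher and 6 member promoter regions.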
